A study of Mus musculus with 8 samples.

Results

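Glucocorticoid signalling in a cell depends on receptors, on the chaperones that hold those receptors ready to bind hormone, and on enzymes that make or destroy the hormone locally. The 8 genes described here cover these roles and were taken by symbol from the 54232 gene identifiers of the count files. They are the glucocorticoid receptor Nr3c1, the mineralocorticoid receptor Nr3c2, the 11-beta-hydroxysteroid dehydrogenases Hsd11b1 and Hsd11b2, the cytosolic chaperones Hsp90aa1 and Hsp90ab1, and the co-chaperones Fkbp4 and Ptges3. All 8 passed the filter on low counts.

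Steroid receptors are held by Hsp90 in a form that can bind hormone, the small co-chaperone p23 (Ptges3) stabilises that complex, and the immunophilin FKBP52 (Fkbp4) favours hormone binding and movement to the nucleus. Hsd11b1 regenerates active glucocorticoid from its inactive keto form, whereas Hsd11b2 inactivates it and so keeps glucocorticoids off the mineralocorticoid receptor in epithelia. In skin, keratinocytes carry both receptors, and glucocorticoid drugs act through Nr3c1.

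RNA was sequenced from epidermis scraped from the back skin of female mice on an F1 C57Bl and 129 background, either wild type or knockout for REDD1, the mTORC1 inhibitor encoded by Ddit4. The animals' age, whether RNA was pooled and the form of the knockout allele are not stated in the labels. Shaved skin of each genotype received acetone vehicle (200 ul, 2 libraries per genotype), the phorbol ester 12-O-tetradecanoylphorbol 13-acetate (TPA, 4 ug, 1 library per genotype), or the glucocorticoid fluocinolone acetonide (FA, 2 ug) 1 h before TPA (FA+TPA, 1 library per genotype). TPA-treated skin was taken at 24 h, so the receptors' first response to the drug lies before the time sampled. No group received FA without TPA. Library totals ranged from 16874233 to 22560098 counts.

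Levels are in CPM, the usual count scaled to library size, after normalisation by the trimmed mean of M values (TMM), and changes are log2 fold changes ± standard error (SE) with adjusted p from edgeR. Nothing in the labels says that the vehicle replicates came from separate animals, so p-values measure the spread between these samples. Treatment effects were fitted over both genotypes because the treated groups had 1 library each within a genotype. Ddit4 ranged from 64.2 to 128 CPM in wild-type libraries and from 4.44 to 18.8 CPM in knockout libraries, without overlap. The keratinocyte markers were abundant everywhere, with Krt5 between 3680 and 5880 CPM. Gm26917, a noncoding transcript, made up 8.341% to 13.83% of the vehicle libraries and 16.77% to 24.21% of those exposed to TPA. Removing it before normalisation left all calls of the 8 genes as they were, except that of Ptges3 in FA+TPA against vehicle (adjusted p = 0.0501).

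The chaperone genes are shown first by sequence, because 2 of them have close copies that bear on their counts. Hsp90aa1 and Hsp90ab1 encode sister proteins, and their coding sequences (2199 and 2172 bases) were 76.24% identical over 2172 aligned bases. The first of consecutive 60-base coding windows of Hsp90aa1 that occurs without change in the processed pseudogene Gm12346 is printed with the aligned stretch of Hsp90ab1. Capitals mark the 11 bases at which the sisters differ, and positions are counted from the start codon (bases 301 to 360 of Hsp90aa1 and 286 to 345 of Hsp90ab1).
Hsp90aa1: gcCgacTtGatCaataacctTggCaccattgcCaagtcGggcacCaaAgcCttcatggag
Hsp90ab1: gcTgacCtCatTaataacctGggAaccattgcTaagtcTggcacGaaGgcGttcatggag

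Over all annotated transcripts of Hsp90aa1, 47.489% of its 50-base stretches also occurred in another gene, mostly in Gm12346. Ptges3 shared 19.594%, nearly all with Ptges3-ps. Hsp90ab1 shared 3.438%, and the remaining 5 genes shared at most 2.254%. Reads from shared stretches can be dropped or split in counting. Gm12346 itself received between 9 and 26 counts per library and Ptges3-ps between 2 and 8. The levels of Hsp90aa1 and Ptges3 are therefore uncertain. The part of read sharing in them was not tested.

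Upstream sequence was taken from RefSeq (GRCm38.p6, the assembly that mm10 names) for Nr3c2, Hsd11b1, Fkbp4 and Ptges3. No window of Nr3c1, Hsd11b2, Hsp90aa1 or Hsp90ab1 was searched, so their upstream motifs are not described. The windows of Fkbp4 and Ptges3, the co-chaperone genes that rose together with TPA, are printed from 250 to 31 bases before the start, 5′ to 3′ on the gene's strand. Capitals mark matches on either strand to a heat shock element core (GAANNTTC), a CCAAT box (CCAAT), a GC box (GGGCGG) or the palindromic glucocorticoid response element (the half-site AGAACA, 3 bases of any kind and its reverse complement). No matches overlap each other in these windows. The Fkbp4 window lies at chr6:128438687-128438906 on the minus strand, partly over the antisense gene Gm10069, and the Ptges3 window at chr10:128058732-128058951 on the plus strand.
Fkbp4: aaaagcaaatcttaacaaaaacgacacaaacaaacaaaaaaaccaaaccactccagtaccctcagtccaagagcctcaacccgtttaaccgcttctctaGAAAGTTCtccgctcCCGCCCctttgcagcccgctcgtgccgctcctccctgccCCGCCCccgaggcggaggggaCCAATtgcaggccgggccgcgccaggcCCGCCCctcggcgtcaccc
Ptges3: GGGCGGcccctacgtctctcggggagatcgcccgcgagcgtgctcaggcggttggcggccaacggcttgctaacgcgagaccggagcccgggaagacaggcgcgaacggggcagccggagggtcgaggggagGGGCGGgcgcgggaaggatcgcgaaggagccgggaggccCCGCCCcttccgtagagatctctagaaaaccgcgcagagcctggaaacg

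Fkbp4 held 1 heat shock element core, starting 151 bases before the start, with 1 CCAAT box and 3 GC boxes. Ptges3 held 3 GC boxes and none of the other motifs. A heat shock core also occurred once in the window of Nr3c2, a gene that fell. The core was present in 5.76% of 32524 windows of the same length, the CCAAT box in 31% and the GC box in 28.7%. The glucocorticoid palindrome occurred in 3 of these windows (0.00922%) and in none of the 4 genes searched, which do not include Nr3c1. These matches describe letters and not binding.

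Compared per kilobase of exon, the genes spanned a wide range in vehicle skin. Hsp90ab1 was highest, at 313 to 331 CPM per kb, followed by Fkbp4 at 30.7 to 34.2 and Nr3c1 at 17.2 to 21.4. Ptges3 (7.42 to 9.71) and Hsp90aa1 (3.25 to 4.9) came next. Hsd11b2 (1.21 to 1.75) and Nr3c2 (0.908 to 1.34) overlapped each other, and Hsd11b1 was lowest at 0.235 to 0.426 CPM per kb. Apart from the Hsd11b2 and Nr3c2 pair, neighbours in this order did not overlap among the 4 vehicle libraries. The places of Hsp90aa1 and Ptges3 are uncertain, because their lengths include the shared stretches described above. In the 4 TPA-exposed libraries Nr3c1 (8.99 to 11.4) and Ptges3 (10.4 to 14.8) came to overlap, and Nr3c2 (0.371 to 0.606) overlapped Hsd11b1 (0.246 to 0.483) instead of Hsd11b2 (1.45 to 1.71).

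**Figure D1:**
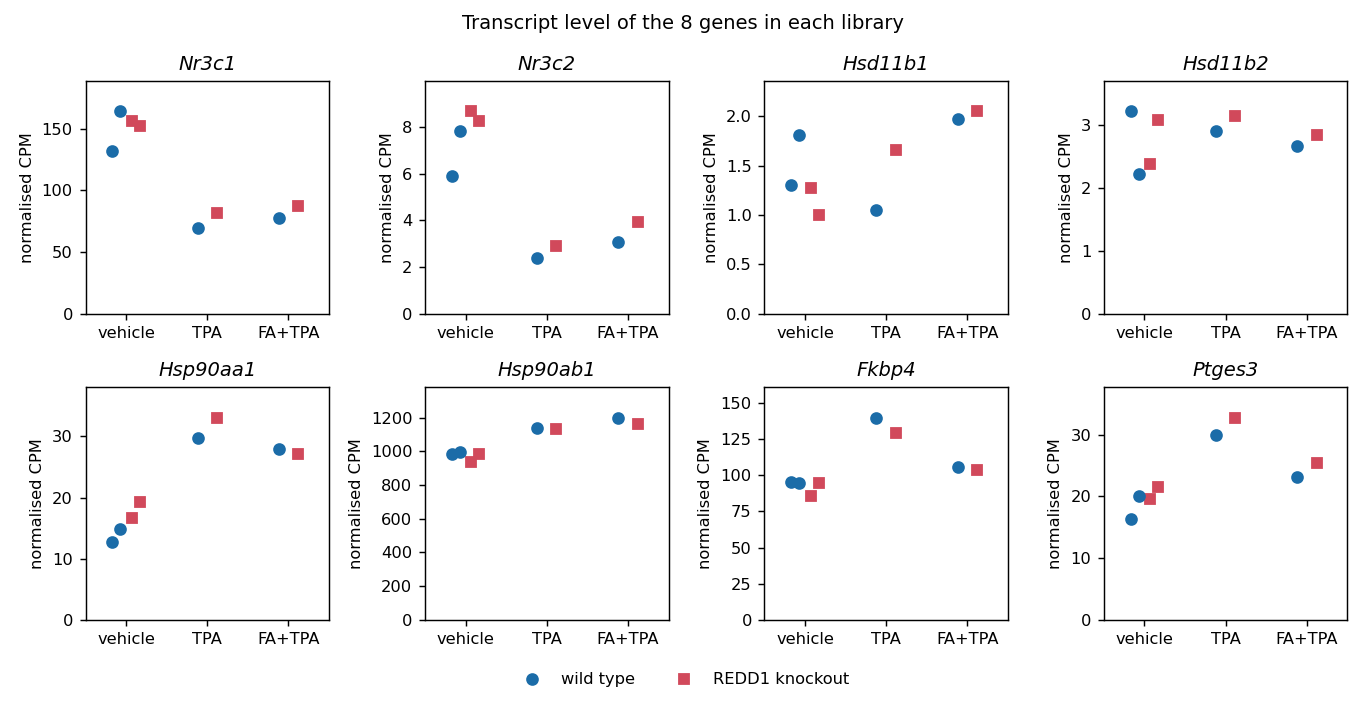
Normalised level (CPM, y axis from 0) of each of the 8 genes in every library, by treatment, with circles for wild type and squares for REDD1 knockout. Nr3c1 and Nr3c2 are lower in all 4 TPA-exposed libraries than in any vehicle library, Hsp90aa1 and Hsp90ab1 are higher in all 4, and Fkbp4 and Ptges3 are highest under TPA alone.

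The first question was how the receptors and their partners stood after TPA. Both receptor transcripts fell, Hsp90aa1 and both co-chaperones rose, Hsp90ab1 rose by a small margin, and neither 11-beta-HSD gene passed the test. In all, 6 of 8 genes were called, 4 up and 2 down, where 46.0% of the 19251 tested genes were called (23.2% up and 22.8% down). With so many genes called, this count says little about these 8 in particular. Levels that did not overlap between treatments are likewise given below without the share of all genes that separated in the same way. Their median change was 0.18, against -0.03 over all genes. With scaling by library size alone, the median over all genes moved by -0.226, the split of all calls became 2846 up and 6432 down (from 4472 and 4380), and 3 of the 8 were up and 2 down. Sizes are thus relative to the scaling.

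Nr3c1 (ENSMUSG00000024431; mm10 chromosome 18, 39410545 to 39519421, minus strand, protein coding) stood at 132 and 164 CPM in wild-type vehicle skin and at 156 and 152 CPM in knockout vehicle skin. With TPA its level was 69.1 CPM (wild type) and 81.7 CPM (knockout). Every TPA library was thus below every vehicle library, in each genotype. The change was -1.01 ± 0.11 (adjusted p = 2.71e-05), which leaves 0.498 of the vehicle level. Over 16 alternative settings it ranged from -1.23 to -0.92 and was called in each.

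Nr3c2 (ENSMUSG00000031618; chromosome 8, 76899442 to 77245012, plus strand, protein coding) encodes the mineralocorticoid receptor, which binds glucocorticoids as well as aldosterone. Its level was 5.88 and 7.81 CPM in wild-type vehicle libraries and 8.67 and 8.26 CPM in knockout ones. With TPA its level was 2.4 CPM in wild type (95% exact Poisson interval 1.71 to 3.29, covering counting error only) and 2.92 CPM in knockout (2.25 to 3.72). The groups did not overlap, and the change was -1.52 ± 0.19 (adjusted p = 7.95e-05). Called in each of 16 alternative settings, it ranged from -1.75 to -1.44. The antisense-strand gene Gm10649 overlaps its exons by 247 bases and had 4 counts over all libraries.

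Markers of other cells moved in the same libraries, where 23.2% of all tested genes rose with TPA and 22.8% fell. Of 7 T cell markers 6 fell with TPA and 1 rose, with a median of -1.66. The T cell receptor gene Trdc went from 7.35 to 16.2 CPM in vehicle libraries to 2.22 CPM (wild type) and 1.57 CPM (knockout), a change of -2.66 that was larger in value than that of either steroid receptor. Thy1 rose, and Skint1, which keratinocytes express, made up the largest share of the list's sum in vehicle and TPA libraries, which was 172 to 199 CPM with vehicle and 130 and 131 CPM with TPA. Of 7 Langerhans cell markers 5 fell and 2 rose (median -0.73, sum 1360 to 1540 CPM with vehicle and 1170 and 1140 CPM with TPA), and the defining marker Cd207 changed by -1.45. The neutrophil list went from 3.96 to 14.7 CPM to 931 CPM (wild type) and 400 CPM (knockout). Most of that sum was S100a9 (517 and 191 CPM, wild type first) and S100a8 (367 and 134 CPM). Cxcr2 (34.9 and 36.3 CPM) and Csf3r (11.9 and 34.8 CPM) were also above all vehicle libraries. Retnlg never passed 0.314 CPM and Ly6g never passed 0.0449 CPM, so the sum does not measure neutrophil number. The keratinocyte list (28700 to 34400 CPM in vehicle) stood at 31600 and 26600 CPM, but its members moved in opposite directions. Of its 8 markers 1 rose and 2 fell, with a median of -0.01. Krt14 went from 2140 to 2780 CPM in vehicle to 8010 CPM (wild type) and 6960 CPM (knockout). Krt10 went from 7910 to 9760 CPM in vehicle to 3190 CPM (wild type) and 1900 CPM (knockout). None of these lists had a marker at 0 in all libraries. In whole epidermis, fewer cells of a type and less RNA per cell cannot be told apart, and the part of cell makeup in the receptor fall was not tested.

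Among the chaperones, Hsp90aa1 (ENSMUSG00000021270; chromosome 12, 110690605 to 110702728, minus strand), the stress-inducible sister, stood at 12.8 and 14.9 CPM in wild-type vehicle libraries and at 16.7 and 19.2 CPM in knockout ones. Under TPA it reached 29.8 CPM (wild type) and 33.1 CPM (knockout). The change of 0.99 ± 0.12 (adjusted p = 9.28e-05) was called in each of 16 alternative settings, between 0.76 and 1.07. Hsp90ab1 (ENSMUSG00000023944; chromosome 17, 45567775 to 45573271, minus strand), the constitutive sister, stood at 981 and 994 CPM in wild-type vehicle libraries and 938 and 982 CPM in knockout ones. Under TPA it was 1140 and 1130 CPM, above all 4 vehicle libraries, but the change was 0.22 ± 0.08 (adjusted p = 0.0495). That call ended when any 1 of the 8 libraries was left out (adjusted p up to 0.19), and with scaling by library size alone the value was -0.01.

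Fkbp4 (ENSMUSG00000030357; chromosome 6, 128429735 to 128438677, minus strand) was at 95.5 and 94.5 CPM in wild-type vehicle libraries and 85.7 and 94.7 CPM in knockout ones. With TPA its level was 140 CPM (wild type) and 129 CPM (knockout), a rise of 0.54 ± 0.08 (adjusted p = 0.000263). Ptges3 (ENSMUSG00000071072; chromosome 10, 128058954 to 128077272, plus strand) was at 16.4 and 20.1 CPM in wild-type and 19.6 and 21.5 CPM in knockout vehicle libraries. It stood at 29.9 CPM (wild type) and 32.8 CPM (knockout) under TPA, a rise of 0.69 ± 0.11 (adjusted p = 0.000402). For these 2 co-chaperones no TPA library overlapped a vehicle library. Each call held in 16 of 16 alternative settings, with lowest values of 0.31 for Fkbp4 and 0.46 for Ptges3.

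The 11-beta-HSD genes were near the lower end of detection. Hsd11b1 (ENSMUSG00000016194; chromosome 1, 193221634 to 193264075, minus strand) rested on 17 to 37 counts per library. It was at 1.3 and 1.81 CPM in wild-type vehicle libraries, at 1.27 and 0.999 CPM in knockout ones, and under TPA at 1.05 CPM (interval 0.61 to 1.68) in wild type and 1.66 CPM (1.17 to 2.29) in knockout. The groups overlapped, with the wild-type TPA library below its vehicle pair and the knockout TPA library above its own. The fitted difference was 0.05 ± 0.32 (95% interval -0.65 to 0.75, adjusted p = 0.912).

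Hsd11b2 (ENSMUSG00000031891; chromosome 8, 105518755 to 105523988, plus strand) rested on 42 to 70 counts per library. Its level was 3.22 and 2.22 CPM in wild-type vehicle libraries and 2.39 and 3.09 CPM in knockout ones, and 2.9 and 3.14 CPM under TPA. All treated values lay within the vehicle range. The difference was 0.15 ± 0.22 (interval -0.34 to 0.64, adjusted p = 0.618), and a change of the size seen in Nr3c1 lies outside the interval of both enzymes.

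**Figure D2:**
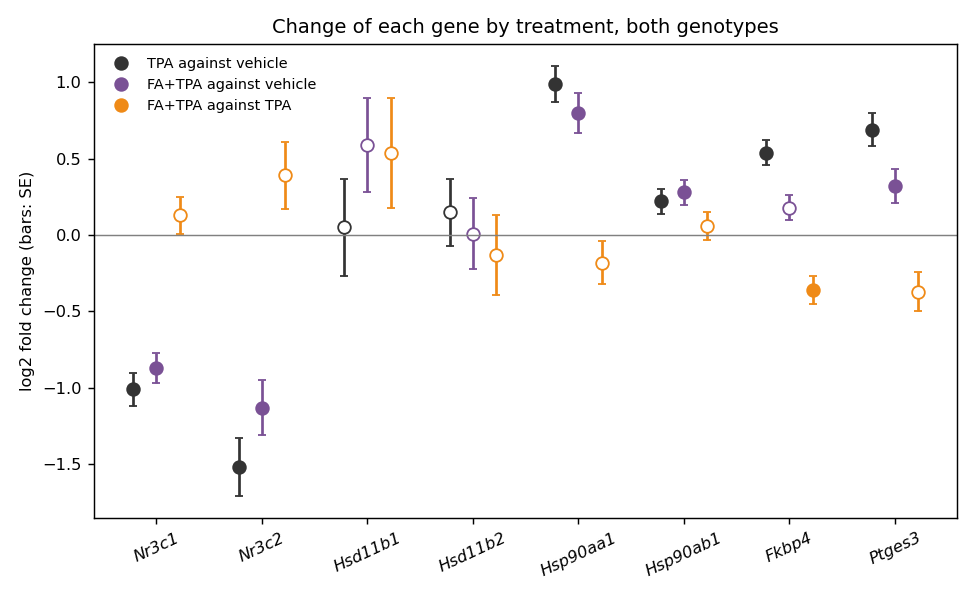
Log2 fold change (y axis) of each gene for TPA against vehicle, FA+TPA against vehicle and FA+TPA against TPA, fitted over both genotypes, with bars of 1 SE and filled points where the adjusted p passed 0.05. The 2 receptors lie below 0 in both comparisons with vehicle, and Fkbp4 is the one filled point for FA+TPA against TPA.

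The next comparison asked whether the glucocorticoid given before TPA was accompanied by different levels of its own receptor and partners. Fkbp5, a glucocorticoid-induced immunophilin of the receptor complex, went from 61 CPM (wild type) and 66.9 CPM (knockout) under TPA to 241 and 233 CPM with FA (1.90 ± 0.20, adjusted p = 0.000314), higher with FA in each genotype. Of the 8 genes only Fkbp4 was called, as lower, where 10% of all tested genes were called (5.71% up and 4.31% down). The median over the 8 genes was -0.03 and over all genes 0.01.

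Fkbp4 stood at 106 CPM (wild type) and 104 CPM (knockout) with FA+TPA, below both TPA libraries (140 and 129) and above all vehicle libraries. The difference from TPA was -0.36 ± 0.09 (adjusted p = 0.0346). This call did not last when either knockout vehicle library or any of the 4 treated libraries was left out (adjusted p up to 0.267), and the values then ran from -0.43 to -0.32. Ptges3 stood at 23.1 and 25.5 CPM, also between the vehicle and TPA values, and did not pass (-0.37 ± 0.13, adjusted p = 0.101). Hsp90aa1 was at 28 and 27.2 CPM (-0.18 ± 0.14, adjusted p = 0.506) and Hsp90ab1 at 1200 and 1160 CPM (0.06 ± 0.09, adjusted p = 0.747).

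The receptors remained low with FA. Nr3c1 was at 77.7 CPM (wild type) and 87.6 CPM (knockout), slightly above TPA alone in each genotype, with a difference of 0.13 ± 0.12 (interval -0.13 to 0.39, adjusted p = 0.562). Nr3c2 was at 3.05 and 3.93 CPM, likewise above TPA alone in each genotype, with a difference of 0.39 ± 0.22 (interval -0.10 to 0.88, adjusted p = 0.335). Against vehicle both stayed called, Nr3c1 at -0.87 ± 0.10 (adjusted p = 0.000149) and Nr3c2 at -1.13 ± 0.18 (adjusted p = 0.000922). These calls held in 16 of 16 alternative settings. The comparisons with vehicle and with TPA share the FA+TPA libraries, so they are not independent of each other.

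Hsd11b1 was at 1.97 CPM in wild type (interval 1.34 to 2.8) and 2.05 CPM in knockout (1.42 to 2.87) with FA+TPA. These were its highest values among the 8 libraries, yet they rested on 31 and 34 counts. Neither the difference from TPA (0.54 ± 0.36, interval -0.26 to 1.33, adjusted p = 0.421) nor that from vehicle (0.59 ± 0.31, interval -0.09 to 1.27, adjusted p = 0.174) passed. Fibroblasts and adipocytes are known to express Hsd11b1. The fibroblast marker list summed to between 899 and 1400 CPM in vehicle, 1180 and 1000 CPM under TPA, and 338 and 581 CPM with FA+TPA. Its members did not move together, since 2 rose and 3 fell in FA+TPA against vehicle, where 17.4% of all genes rose and 14.2% fell. The collagen genes Col1a1, Col1a2 and Col3a1 fell, whereas Dcn was at 29.1 and 31.6 CPM against 4.97 to 23.2 CPM in vehicle, and Pdgfra at 11.1 and 10.6 CPM against 2.49 to 7.91 CPM. The adipocyte list summed to between 49.9 and 78.6 CPM in vehicle, 90.6 and 83 CPM under TPA, and 115 and 128 CPM with FA+TPA, although its defining marker Adipoq never passed 0.543 CPM. No marker of either list was at 0 in all libraries. Their part in the level of Hsd11b1 was not tested. Hsd11b2 was at 2.67 and 2.84 CPM with FA+TPA, again within its vehicle range.

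Against vehicle, FA+TPA left 5 of the 8 genes called, 3 up and 2 down, where 31.6% of all genes were called (17.4% up and 14.2% down, or 1953 genes up and 4982 down in place of 3347 and 2729 with scaling by library size alone), with a median of 0.23 against -0.01 over all genes. Hsp90aa1 was higher by 0.80 ± 0.13 (adjusted p = 0.000793), in each of 16 alternative settings. Hsp90ab1 was higher by 0.28 ± 0.08 (adjusted p = 0.0229). The call was lost on leaving out knockout vehicle replicate 1 or 2 or either FA+TPA library (adjusted p up to 0.2) and with scaling by library size (0.06). Ptges3 was higher by 0.32 ± 0.11 (adjusted p = 0.0461), a call kept in 3 of 16 alternative settings. Fkbp4 did not pass (0.18 ± 0.08, adjusted p = 0.107).

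Ratios within each pair of related genes were also taken per kilobase, since a ratio within a library does not depend on its scaling. This was chosen after the values had been seen. Relative to Hsp90ab1, Hsp90aa1 was at 0.00994 and 0.0114 in wild-type vehicle libraries and 0.0136 and 0.015 in knockout ones. The ratio was 0.02 and 0.0224 under TPA and 0.0177 and 0.0178 with FA+TPA, so that all 4 TPA-exposed libraries lay above all 4 vehicle libraries. The mean log2 ratio differed by 0.65. As the ratios were chosen with the levels of both genes in view, these values are a description with no test.

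The ratio of Nr3c2 to Nr3c1 was 0.0528 and 0.0564 in wild-type and 0.0658 and 0.0646 in knockout vehicle libraries. It was 0.0413 and 0.0424 under TPA and 0.0467 and 0.0532 with FA+TPA, so the knockout FA+TPA library overlapped the vehicle range. The mean log2 ratio differed by -0.39. The ratio of Hsd11b2 to Hsd11b1 ran from 2.84 to 7.14 in vehicle libraries and from 3.13 to 6.39 in TPA-exposed ones, and the exposed range lay within the vehicle range.

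**Figure D3:**
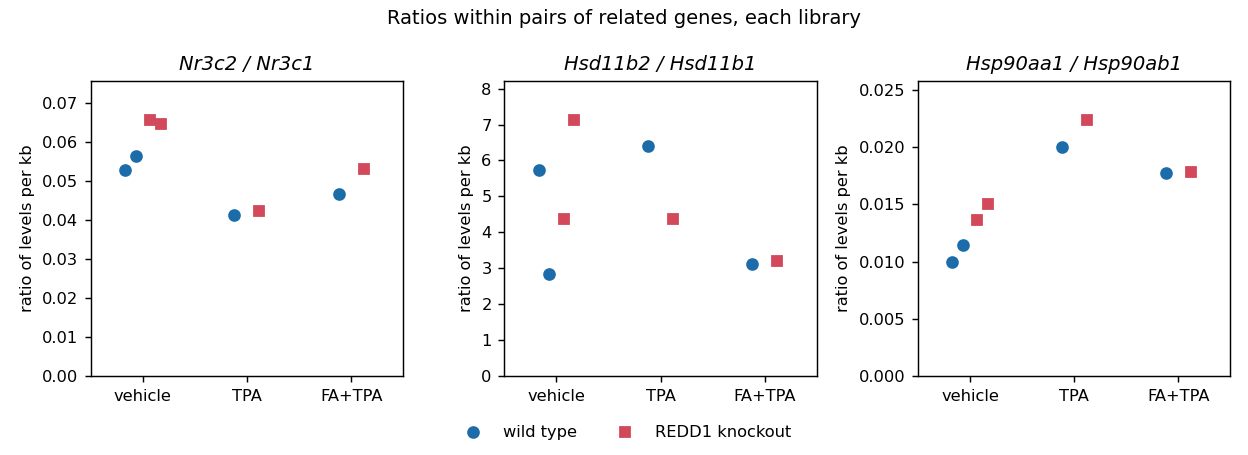
Ratio of the levels per kilobase within 3 pairs of genes (y axes from 0) in each library, by treatment, with circles for wild type and squares for REDD1 knockout. Only in the Hsp90 panel do all 4 TPA-exposed libraries (0.0177 to 0.0224) lie above all 4 vehicle libraries (0.00994 to 0.015).

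Loss of REDD1 was compared with wild type next, since REDD1 is itself induced by glucocorticoids. Over all treatments 0 of the 8 genes were called by edgeR, where 3.58% of all genes were (1.98% up and 1.60% down, or 640 genes up and 233 down in place of 382 and 308 with scaling by library size alone), and 0 had an unadjusted p under 0.05. The largest difference was that of Nr3c2 (0.31 ± 0.14, adjusted p = 0.323), which was higher in the knockout library under each treatment. Nr3c1 differed by 0.13 ± 0.08 (interval -0.05 to 0.31, adjusted p = 0.512) and Fkbp4 by -0.08 ± 0.07. In vehicle skin 0 of 8 were called, where 2.17% of all genes were (1.44% up and 0.727% down), and 1 had an unadjusted p under 0.05. This was Hsp90aa1, at 0.38 ± 0.16 (adjusted p = 0.367), whose knockout vehicle libraries (16.7 and 19.2 CPM) were both above the wild-type ones (12.8 and 14.9 CPM). DESeq2, limma-voom and the other alternatives also called none of the 8 in any of the 4 comparisons involving genotype, over 57 refits.

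The genotypes were then compared in their responses. Again 0 of 8 genes were called by edgeR for the interaction of genotype with TPA or with FA, with 0.00519% of all genes called for the first and 0 for the second, and 0 of the 8 had an unadjusted p under 0.05. The largest value was that of Hsd11b1 with TPA (1.12 ± 0.62, interval -0.27 to 2.51, adjusted p = 1). Its wild-type level was 1.3 to 1.81 CPM with vehicle and 1.05 CPM with TPA, and its knockout level 0.999 to 1.27 CPM and 1.66 CPM. For Nr3c1 the interaction with TPA was 0.19 ± 0.24 and for Nr3c2 -0.03 ± 0.44. These tests take their spread from the vehicle pairs alone, and their intervals are wide.

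The other chaperones of the receptor cycle were described by a list of 22 genes, all measured. With TPA 10 rose and 1 fell, where 23.2% of all genes rose and 22.8% fell, with a median of 0.17. The counts became 6 up and 3 down with scaling by library size alone. Hspa8, the constitutive Hsp70 that loads clients onto Hsp90, rose by 0.82 ± 0.08 (adjusted p = 1.98e-05), the Hsp70 relative Hspa4 by 0.69 ± 0.08, and Sgta, a co-chaperone that binds Hsp70 and Hsp90, by 0.71 ± 0.08. Each of these 3 also rose with scaling by library size (0.46 to 0.59). Fkbp5, which opposes Fkbp4 in the receptor complex, was the 1 that fell (-0.91 ± 0.18, adjusted p = 0.00174). With FA, Fkbp5 rose and Bag1, an Hsp70 nucleotide exchange factor, fell (-0.48 ± 0.11, adjusted p = 0.0178), while the other 20 did not pass, where 5.71% of all genes were higher and 4.31% lower. The Bag1 call ended without the knockout TPA, wild-type FA+TPA or wild-type TPA library (adjusted p up to 0.225).

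Hspa8 also differed between genotypes. In vehicle skin it was at 55 and 55.6 CPM in wild type and 129 and 122 CPM in knockout. Under TPA it was 101 and 216 CPM, and with FA+TPA 98.2 and 190 CPM, so the wild-type value was the lower at each treatment. Over all treatments the knockout difference was 1.10 ± 0.07 (adjusted p = 2.2e-05), and the call held in all alternatives run. Of the 50-base stretches of Hspa8, 39.377% occurred in another gene, mostly the processed pseudogene Gm15459, so its count is uncertain, and the part of read sharing in the difference was not tested. The knockout vehicle libraries also had more sebaceous gland marker RNA, with a sum of 4090 to 5220 CPM against 1470 to 2290 CPM in wild type. In vehicle skin 6 of 6 of these markers were called higher, where 1.44% of all genes were. Their skeletal muscle marker sum was 77.7 to 199 CPM against 6.05 to 22.9 CPM, and no marker of either list was at 0 in all libraries. The part of these cells in the difference of Hspa8 was not tested.

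Heat shock genes outside the receptor complex went both ways with TPA. Of 14 measured, 7 rose and 4 fell (6 and 4 with scaling by library size), with a median of 0.41, against 23.2% of all genes up and 22.8% down. The endoplasmic reticulum chaperones Hspa5 (1.47 ± 0.09, adjusted p = 6.01e-07) and Hsp90b1 (1.30 ± 0.09, adjusted p = 1.24e-06) rose, whereas the small heat shock protein gene Hspb8 fell (-1.45 ± 0.09, adjusted p = 9.83e-07). With FA 3 were higher and 1 lower than under TPA, against 5.71% and 4.31% of all genes. Hspb8 (1.00 ± 0.10) and Hspb1 (1.28 ± 0.13, adjusted p = 0.000276) were higher. Hspb1 stood at 29.7 and 28.6 CPM under TPA, 70.8 and 71.1 CPM with FA+TPA, and between 76 and 108 CPM in vehicle. The mitochondrial chaperone Hspa9 was lower (-0.47 ± 0.10, adjusted p = 0.0117), which no longer passed without either FA+TPA library or the wild-type TPA library (adjusted p up to 0.143).

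Of 19 other steroid receptors and coregulators, 18 were tested, and with TPA 0 rose and 7 fell, with a median of -0.22, against 23.2% of all genes up and 22.8% down. Scaling by library size made this 0 up and 12 down. The corepressor Nrip1 changed by -0.58 ± 0.09 and the coactivator Ncoa2 by -0.51 ± 0.09 (adjusted p = 0.000313 and 0.000822). With FA only Ncoa2 of the 18 passed, as higher (0.45 ± 0.10, adjusted p = 0.0175), against 5.71% of all genes higher and 4.31% lower. That call ended when any treated library was left out (adjusted p up to 0.231).

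Genes of local steroid synthesis and metabolism were mostly low. Of 24 listed, 23 were found and 15 tested, of which 2 rose and 1 fell with TPA (1 and 3 with scaling by library size), a smaller share than the 46.0% of all genes called. H6pd, which supplies the cofactor that lets Hsd11b1 work as a reductase, rose by 1.03 ± 0.20 (adjusted p = 0.00184). It stood at 15.2 and 12.6 CPM under TPA, at 8.59 and 10.2 CPM in wild-type vehicle libraries and at 4.17 and 5.4 CPM in knockout ones. Hsd17b10 fell (-0.63 ± 0.13, adjusted p = 0.00223). The electron donor Por rose (0.38 ± 0.09, adjusted p = 0.00613), which no longer passed without the wild-type TPA library (0.29, adjusted p = 0.122) and with scaling by library size (0.15). With FA, Hsd17b10 was higher (0.56 ± 0.14, adjusted p = 0.035) and the 5-alpha-reductase Srd5a1 lower (-0.50 ± 0.13, adjusted p = 0.0414), where 5.71% of all genes were higher and 4.31% lower. Both calls ended without the wild-type TPA library, either FA+TPA library or either knockout vehicle library, and that of Hsd17b10 also without the knockout TPA library (adjusted p up to 0.365). The value of Srd5a1 was -0.31 without the wild-type TPA library. Cyp11b1, which makes the active hormone, was at most 0.74 CPM and Cyp21a1 at most 0.0604 CPM. Of 10 genes of the melanocortin and corticotropin-releasing axis, Ucn2 alone passed the filter on low counts, and it did not pass the test.

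**Figure D4:**
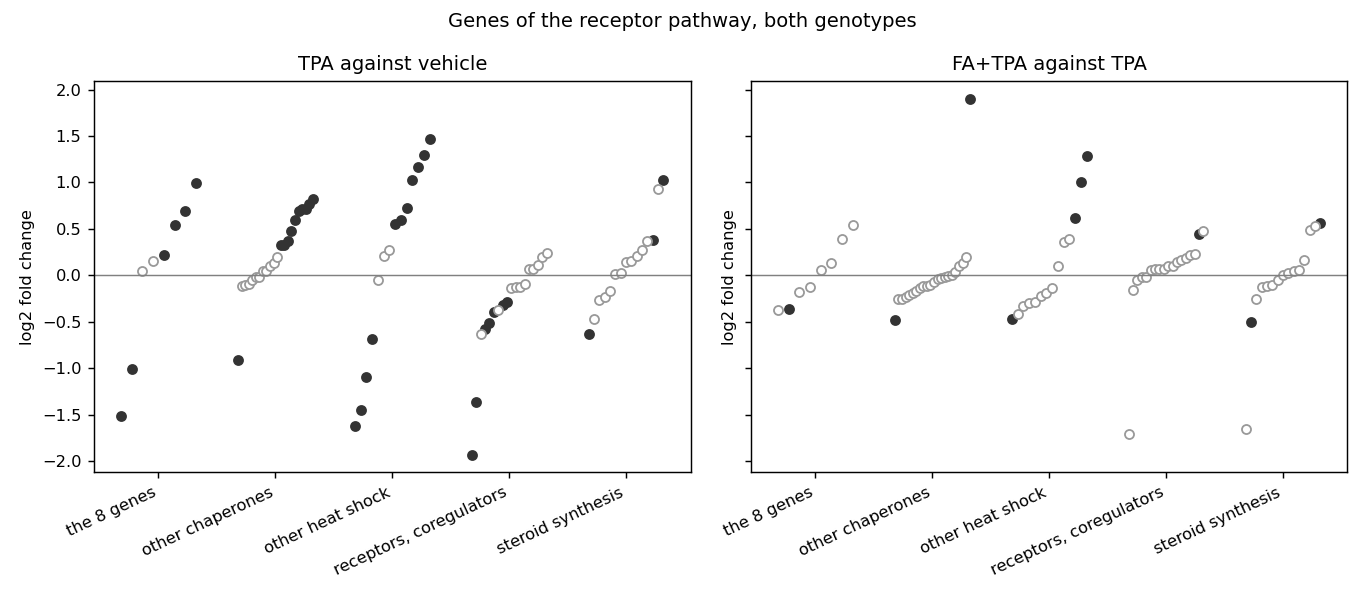
Log2 fold change (y axis) of each gene of 5 groups, ordered by value within a group, for TPA against vehicle on the left and FA+TPA against TPA on the right, with filled points where the adjusted p passed 0.05. Among the other chaperones 10 filled points lie above 0 and 1 below on the left, and on the right Fkbp5 stands highest at 1.90.

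Finally, the genes whose pattern over the 8 libraries was closest to that of each receptor and enzyme were found by the root mean square difference of log2 levels, centred per gene, among 9153 candidates. For Nr3c1 these were the chromatin remodeller gene Chd6 (0.0729), Dock11 (0.0847) and Fam111a (0.0917), where Nr3c1 itself varied by 0.483 about its mean. For Nr3c2 they were Emb (0.0724), Lrrcc1 (0.128) and Arhgap24 (0.135), against its own 0.686. Hsd11b1 had no close neighbour among these candidates, with Heg1 at 0.173, Mir22hg at 0.177 and Cyp26b1, which degrades retinoic acid, at 0.181, against 0.354. Candidates needed a mean log2 CPM of at least 3, which Hsd11b1, at 17 to 37 counts per library, did not reach. The part of counting error in its pattern was not tested. Hsd11b2 hardly varied (0.173), and Ercc2 (0.0487), Sh2b1 (0.0672) and Map3k5 (0.0673) were nearest. All points share the same 8 libraries.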

How the data were processed

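RNA-seq of scraped mouse epidermis gave 8 libraries in 6 groups. The authors trimmed reads with Trim Galore, aligned them with STAR to mm10 and counted them with HTSeq, per the submitters' processing notes. No version, annotation release or strand setting was found in the labels, so reads of a gene and an overlapping or antisense partner cannot be told apart. Each deposited file held raw counts per Ensembl gene. Symbols, positions and exon lengths came from GENCODE M21, which matched 54165 of 54232 identifiers. The members and gene lists were chosen with earlier results of these data known.

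Quasi-likelihood F tests were run in edgeR 4.0.16 (R 4.3.3) with TMM factors (0.859 to 1.102) and filterByExpr by treatment (minimum count 10), leaving 19251 genes. Benjamini-Hochberg adjustment ran over all of them, with a threshold of 0.05. The treatment effects, and the genotype effect across treatments, came from an additive fit of 8 libraries (4 residual degrees of freedom). The genotype effect in vehicle skin and both interactions came from a fit with 1 mean per group (2 residual degrees of freedom), so the lone treated libraries were assumed to vary like the vehicle pairs. SE is the absolute log2 change over the square root of F. A floor of 3 counts was 0.135 to 0.191 CPM. Vehicle pairs differed beyond sampling noise (chi-square per degree of freedom 27.57 in wild type and 12.37 in knockout). These values came from raw counts scaled by library total, without TMM factors and with Gm26917 kept in, and do not describe a typical gene.

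From each list the text names up to 3 called genes of smallest p for TPA against vehicle and for FA+TPA against TPA. Hspa8 as a genotype difference, and Cyp11b1, Cyp21a1 and Ucn2, were named after their values were seen. Some results under this rule are not reported here. Alternatives were RLE factors, plain library sizes, omission of the low-count filter, a higher minimum (50), DESeq2 1.42.0, limma-voom (limma 3.58.1), 1 mean per group, leaving out each library, and fits of the vehicle libraries by themselves, blocked by replicate number or not. Removal of Gm26917 was added after seeing the data.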

Additional observations from a re-analysis of the deposited data

How the results depend on the processing

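The receptor falls and the rises of Hsp90aa1, Fkbp4 and Ptges3 with TPA kept their direction and call in 16 of 16 alternatives, as did Nr3c1, Nr3c2 and Hsp90aa1 in FA+TPA against vehicle. The count of the 8 genes called for FA+TPA against TPA went from 1 to 0 with plain library sizes and with 1 mean per group, and ranged from 0 to 1 on leaving out libraries. For FA+TPA against vehicle it went from 5 to 3 under both, and ranged from 3 to 5. Of 41 sign changes 1 was of a called value, Hsp90ab1 with TPA (-0.01 with plain library sizes), and the smallest adjusted p of a reversed value was 0.483.

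With plain library sizes the other reversed values were -0.17 for Hsd11b1 and -0.07 for Hsd11b2 with TPA, and -0.20 for Hsd11b2 and -0.04 for Fkbp4 in FA+TPA against vehicle. For genotype they were 0.01 for Hsd11b1 and 0.03 for Hsp90ab1. For the interaction with TPA they were 0.15 for Nr3c2, 0.12 for Fkbp4 and 0.14 for Ptges3, and with FA -0.12, -0.10 and -0.19. With 1 mean per group Hsd11b1 was -0.01 with TPA and 0.09 for genotype. Without the low-count filter the Hsp90ab1 interaction with TPA was -0.02, and at a minimum count of 50 the Ptges3 interaction with FA was -0.01.

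On leaving out 1 library, Hsd11b1 with TPA ranged from -0.45 to 0.46 and Hsd11b2 in FA+TPA against vehicle from -0.09 to 0.13. For genotype over all treatments Hsd11b1 ranged from -0.28 to 0.13 and Hsd11b2 from -0.04 to 0.18. In vehicle skin Nr3c1 ranged from -0.10 to 0.22 and Hsd11b2 from -0.23 to 0.30. The interaction with TPA ranged from -0.0046 to 0.34 for Nr3c1, -0.27 to 0.17 for Nr3c2, -0.18 to 0.32 for Hsd11b2, -0.01 to 0.06 for Hsp90ab1, -0.12 to 0.03 for Fkbp4 and -0.21 to 0.10 for Ptges3. The cause was not tested.

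Counts over all genes moved by over 1.5 times in places. FA+TPA against TPA gave 571 to 1002 calls, in place of 1929, when a treated library was left out, and FA+TPA against vehicle 3159 and 2652, in place of 6076, without the knockout and the wild-type FA+TPA library. Genotype over all treatments gave 1552 without the low-count filter, 450 with 1 mean per group and 288 to 382 without a knockout vehicle or FA+TPA library, in place of 690. In vehicle skin there were 219 at a minimum count of 50, 272 by DESeq2, and 960 and 1465 without wild-type replicate 1 and 2, in place of 418. The interaction with TPA gave 0 to 365 in place of 1, and that with FA up to 183 in place of 0. Deviations of same-numbered vehicle samples from their group means hardly correlated across genes (-0.0588). With 2 vehicle libraries per genotype, this cannot settle whether the replicate numbers pair the samples. With a replicate block, the vehicle libraries alone gave 651 genes for genotype and 0 of the 8 members. Depth limits Hsd11b1, at 17 to 37 counts per library, most.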

Other observations

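Sodium transport genes, which the mineralocorticoid receptor regulates in other epithelia, moved mostly upward while Nr3c2 was low. Of 14 measured, 9 rose and 2 fell with TPA, with a median of 0.31, and 6 rose and 3 fell with scaling by library size alone. The background was 23.2% of all genes up and 22.8% down. The epithelial sodium channel subunit Scnn1b rose by 1.55 ± 0.11 (edgeR adjusted p = 2.09e-06), from a vehicle range of 9.93 to 10.7 CPM to 34.5 CPM (wild type) and 26.3 CPM (knockout). The sodium pump subunit Atp1b1 rose by 1.27 ± 0.09 (adjusted p = 2.62e-06).

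With FA before TPA, 5 of the 14 were higher than under TPA and 2 lower, where 5.71% of all genes were called higher and 4.31% lower. Atp1b1 stood at 121 CPM (wild type) and 94.3 CPM (knockout) after TPA, and FA brought the values 200 and 180 CPM (0.82 ± 0.11, adjusted p = 0.00122). The kinase Sgk3 (0.55 ± 0.11, adjusted p = 0.0084) and the deubiquitinase Usp2 (0.58 ± 0.12, adjusted p = 0.0104) were also higher. The Sgk3 call ended without the wild-type FA+TPA or TPA library (adjusted p up to 0.17), and that of Usp2 without either FA+TPA library or the knockout TPA library (up to 0.19). No hypothesis was tested on these genes.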
